A study of Arabidopsis thaliana with 3 samples.

Results

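The mRNAs of 10 Aux/IAA auxin repressors of Arabidopsis thaliana were followed here, read by read, in their poly(A) tail length and in the uridines added to their 3′ ends. They were taken by locus identifier under a rule that used no measured value, but were chosen with earlier results of these data known. They are IAA2, IAA3, IAA7, IAA8, IAA9, IAA13, IAA16, IAA17, IAA26 and IAA27, 10 of 16577 locus identifiers in the table. They gave 659 of 442916 reads. The RNA was total RNA, depleted of ribosomal RNA, from flowers of wild-type Col-0 plants grown on soil under long days. The authors' methods name flower buds for these libraries. There were 3 biological replicates and no other genotype or treatment, so no groups could be compared. Each mRNA was instead compared with all other mRNAs of the same libraries. The method was TAIL-seq, which ligates an adapter to RNA 3′ ends and reads the transcript from one side and its tail, with any nucleotides added after the last A, from the other.

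Aux/IAA proteins repress auxin-responsive genes by binding ARF transcription factors and recruiting TOPLESS co-repressors. Auxin acts as a glue between an Aux/IAA and an F-box receptor of the TIR1/AFB family, and the repressor is then ubiquitinated by an SCF complex and degraded. Many Aux/IAA genes are themselves switched on by auxin, which closes a negative feedback loop, and several are known for mRNAs with short lifetimes. Uridylation, the addition of Us by terminal uridylyltransferases such as URT1 in Arabidopsis, is found mainly on mRNAs whose tails have been shortened, and is tied to mRNA turnover.

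The tails that carry the results are shown first, since they are what was counted. Each is a molecule read in a library, written 5′ to 3′ with the As in lower case and the added Us in capitals. For IAA2, IAA7, IAA8, IAA9, IAA16 and IAA26, the tail shown is the uridylated read in the middle when its reads were ordered by number of As.
IAA2: aaaaaaaaaaU
IAA7: aaaaaaaaaaaaaaaaaU
IAA8: aaaaaaaaaaaaaaaU
IAA9: aaaaaaaaaaaaaaaaU
IAA16: aaaaaaaaaaaaUU
IAA26: aaaaaaaaaaaaaaaaaUU

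The shortest uridylated tails of IAA16, and the IAA16 tail with the most added Us, are shown because IAA16 alone passed the uridylation test among the 5 members with enough reads. That call did not hold under every alternative. IAA2, with too few reads to test, also had a uridylated tail of 9 As. The 3 uridylated IAA16 tails under 10 As were all read in replicate 1, as was the tail with 4 Us.
IAA16 short tail 1: aaaaaaaUU
IAA16 short tail 2: aaaaaaaaaUU
IAA16 short tail 3: aaaaaaaaaUU
IAA16 most Us: aaaaaaaaaaaUUUU

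The libraries held 222681, 113458 and 106777 reads in replicates 1, 2 and 3, of which 7.41%, 9.96% and 11.6% were uridylated. Replicate 1 came from a sequencing run of its own and the other libraries shared a second run, so run and replicate cannot be told apart. The median tail without added nucleotides was 26, 22 and 22 As. The 2 most-read mRNAs, CRD1 and RCI2A, took 0.114%, 21.6% and 17.3% of the reads. All 5 flower identity mRNAs looked for, AP3, PI, AG, SEP1 and SEP3, were detected in replicates 1 and 2, and 4 of them in replicate 3. Together they had 91.2, 54.6 and 55.3 reads per 100000, whereas the 2 root and the 2 seed markers had 0 reads in every library.

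The 10 mRNAs differed widely in how often they were read. IAA9 (AT5G65670, chr5:26253408-26256544 of TAIR10.1) had 57.5, 41.4 and 46.8 reads per 100000 in replicates 1, 2 and 3. IAA8 (AT2G22670, chr2:9636346-9638761), a close relative of IAA9 and IAA27, had 60.6, 31.7 and 33.7. Their 95% exact Poisson intervals overlapped in each library, and these 2 mRNAs together made up 432 of the 659 reads, or 65.6%. Intervals on counts and shares in this text cover counting error only.

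IAA16 (AT3G04730, chr3:1288155-1290891), a relative of IAA7 and IAA17, was next in total reads, but not in each library. It had 37.7 reads per 100000 (30.1 to 46.7) in replicate 1, 4.41 (1.43 to 10.3) in replicate 2 and 7.49 (3.23 to 14.8) in replicate 3. Its share of the reads of the 10 members was 19.0%, 4.76% and 7.08%. IAA7 (AT3G23050, chr3:8194606-8197161), known from the auxin-resistant axr2 mutant, had 17.1, 10.6 and 14.0 reads per 100000, and so lay below IAA16 in replicate 1 and above it in the others, where their intervals overlapped. IAA13 (AT2G33310, chr2:14113025-14116089), a close relative of the embryonic root regulator BODENLOS, had 11.7, 1.76 and 0.937.

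The last 5 members had few reads, 36 in all. IAA26 (AT3G16500, chr3:5612203-5614803), also called PAP1 for its binding to phytochrome, had 8, 2 and 1 reads. IAA17 (AT1G04250, chr1:1136078-1138663), mutated in axr3, had 9, 0 and 1, and IAA2 (AT3G23030, chr3:8180646-8182095), a classic auxin-induced gene, had 7, 0 and 1. IAA27 (AT4G29080, chr4:14323296-14325361), also named PAP2, had 4, 0 and 0, and IAA3 (AT1G04240, chr1:1128149-1129689), altered in the short hypocotyl mutant shy2, had 2, 1 and 0. Where a library had 0 reads of a member, the limit of 3 counts leaves room for a low level.

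**Figure D1:**
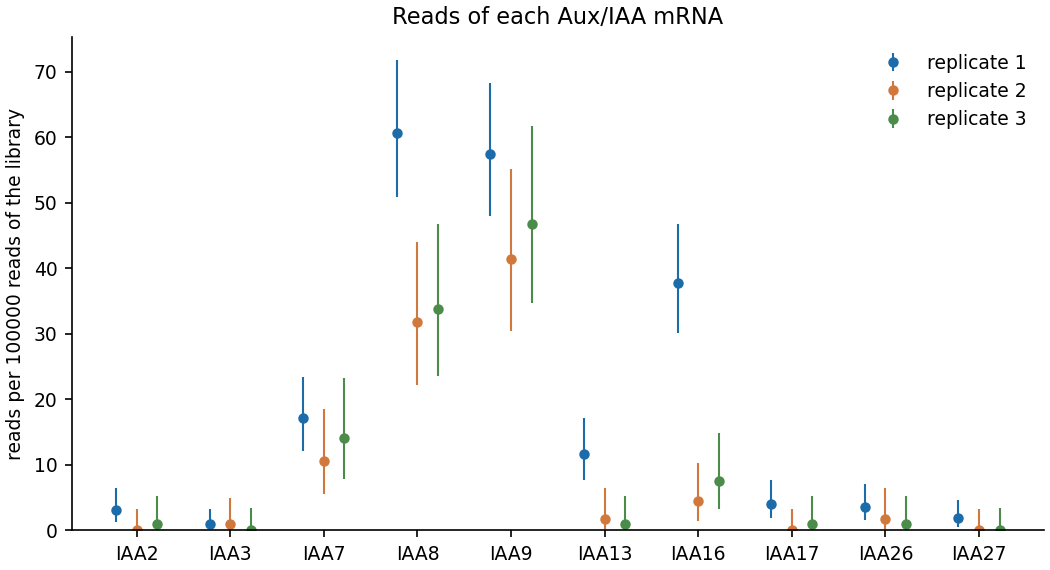
Reads of each Aux/IAA mRNA per 100000 reads of the library (vertical axis), with a point per library and 95% exact Poisson intervals as lines. IAA8 and IAA9 lie highest in every library, and IAA16 is at 37.7 in replicate 1 against 4.41 and 7.49 in replicates 2 and 3.

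The members were read more often in replicate 1. Together they had 198, 92.5 and 106 reads per 100000, and replicate 1 was 2.00-fold (95% interval 1.70 to 2.36) above the pooled replicates 2 and 3. Without the reads of CRD1 and RCI2A the ratio was 1.61. The ratio was 6.39 for IAA16 (3.54 to 12.5), 8.57 for IAA13 (2.63 to 44.2), 1.85 for IAA8 (1.38 to 2.50), 1.39 for IAA7 (0.828 to 2.37) and 1.31 for IAA9 (0.995 to 1.72). Without CRD1 and RCI2A it was still 5.15 for IAA16 and 6.91 for IAA13, but 1.05 for IAA9. These intervals treat the reads as the units, and the libraries differ in run as well as in plants. A like skew was seen outside the members. ARF mRNAs had 218 reads in replicate 1 and 145 in replicates 2 and 3 together, and JAZ mRNAs, described below, had 190 and 126. The 5 flower identity mRNAs had 91.2, 54.6 and 55.3 reads per 100000. Auxin synthesis mRNAs, with 10 and 11 reads, did not show it. In bulk RNA of this tissue, fewer cells that hold an mRNA and less of it per cell cannot be told apart.

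Over all their reads, most of them from IAA8 and IAA9, the members lay near all mRNAs in uridylation, above them in replicates 1 and 3 and below in replicate 2. In replicate 1, 46 of 441 member reads were uridylated, or 10.4% (95% Wilson interval 7.91% to 13.6%). In replicate 2, 10 of 105 were uridylated, or 9.52% (5.26% to 16.6%), and in replicate 3, 17 of 113, or 15.0% (9.61% to 22.8%). The interval held the value of all reads in replicates 2 and 3 and lay above it in replicate 1. The mean over libraries was 11.7% ± 2.96 (SD, n = 3) for the members and 9.66% ± 2.12 (SD, n = 3) for all mRNAs. These SDs hold library differences that members and all mRNAs share, so they do not measure the spread of the gap. Against the members' values above, all reads had 7.41%, 9.96% and 11.6% in replicates 1, 2 and 3. The gap over the whole family was not tested. Without IAA8 and IAA9 the other 8 members had 24 of 178, 3 of 22 and 8 of 27 uridylated reads (13.5%, 13.6% and 29.6%). Their intervals were 9.23% to 19.3%, 4.75% to 33.3% and 15.9% to 48.5%. The mean over libraries was 18.9%, unweighted by reads, so the small replicates 2 and 3 count as much as replicate 1. Added G or C was rare, on 4 member reads or 0.607%, against 0.752% of all reads.

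Only IAA16 passed the test for uridylation among the 5 members with the 20 pooled reads it needed. IAA16 had 13 uridylated of 84 reads in replicate 1, 0 of 5 in replicate 2 and 3 of 8 in replicate 3. This is 16 of 97 reads, or 16.5% (Wilson 10.4% to 25.1%), where 7.65 were expected from the other mRNAs. The Mantel-Haenszel odds ratio was 2.32 (95% interval 1.35 to 3.97, n = 97 reads, adjusted p = 0.0248, Cochran-Mantel-Haenszel test with Benjamini-Hochberg adjustment over 3439 mRNAs), and the exact conditional test gave an adjusted p of 0.0293. Thus 1 of 5 members was higher and 0 were lower. Of all mRNAs tested, 9.51% were higher and 5.76% lower, and their median uridylation was 8.00%, so IAA16 lay above 81.1% of them and the median of the 5 members was 9.23%.

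The IAA16 call rested on few reads. In replicate 1 alone, the only library of its run, the odds ratio was 2.29 with an adjusted p of 0.0889. Without replicate 3 it was 2.09 (n = 89 reads, adjusted p = 0.127), and without replicate 1 too few reads remained for the test. The p-values treat reads as independent. With a variance inflated for the spread between libraries, estimated over all mRNAs, the adjusted p was 0.223.

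The other tested members had odds ratios from 0.947 to 1.38. IAA8 had 13 of 135, 2 of 36 and 4 of 36 uridylated reads in replicates 1, 2 and 3, in all 19 of 207 or 9.18% (5.95% to 13.9%), with an odds ratio of 1.08 (0.671 to 1.73). IAA9 had 9 of 128, 5 of 47 and 5 of 50, in all 19 of 225 or 8.44% (5.47% to 12.8%), with an odds ratio of 0.947 (0.591 to 1.52). The intervals of this closely related pair leave room for a change of less than 2-fold in either direction. IAA7 had 1 of 38, 2 of 12 and 3 of 15 (9.23%, odds ratio 1.05, 0.449 to 2.45), and its odds ratio was 0.338 in replicate 1 alone and 1.86 without it. IAA13 had 3 uridylated reads, all in replicate 1, of 29 (10.3%, odds ratio 1.38, 0.417 to 4.54). The adjusted p was 1 for these 4 members.

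Among the members with under 20 reads, IAA2, IAA3 and IAA26 had high shares on very few molecules. IAA26 had 4 uridylated of 11 reads (36.4%, 15.2% to 64.6%), IAA2 had 4 of 8 (50%, 21.5% to 78.5%) and IAA3 had 2 of 3 (66.7%, 20.8% to 93.9%). IAA17 had 0 of 10, with a Wilson upper limit of 27.8%, and IAA27 had 0 of 4, with an upper limit of 49.0%. These 5 members together had 10 uridylated of 36 reads, or 27.8% (15.8% to 44.0%). When the minimum was lowered to 10 reads, IAA26 was tested and was higher, with an odds ratio of 6.43 (n = 11 reads, adjusted p = 0.0375, Cochran-Mantel-Haenszel test). IAA17 was tested as well and was not called. At that minimum 590 mRNAs in all were higher, against 327 of 3439 (9.51%) at the minimum of 20 reads. More mRNAs were tested at 10 reads, but their number is not given here, so 590 cannot be read as a share. The IAA26 call rests on 4 uridylated reads, and neither the exact conditional test nor the inflated variance was applied to it.

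**Figure D2:**
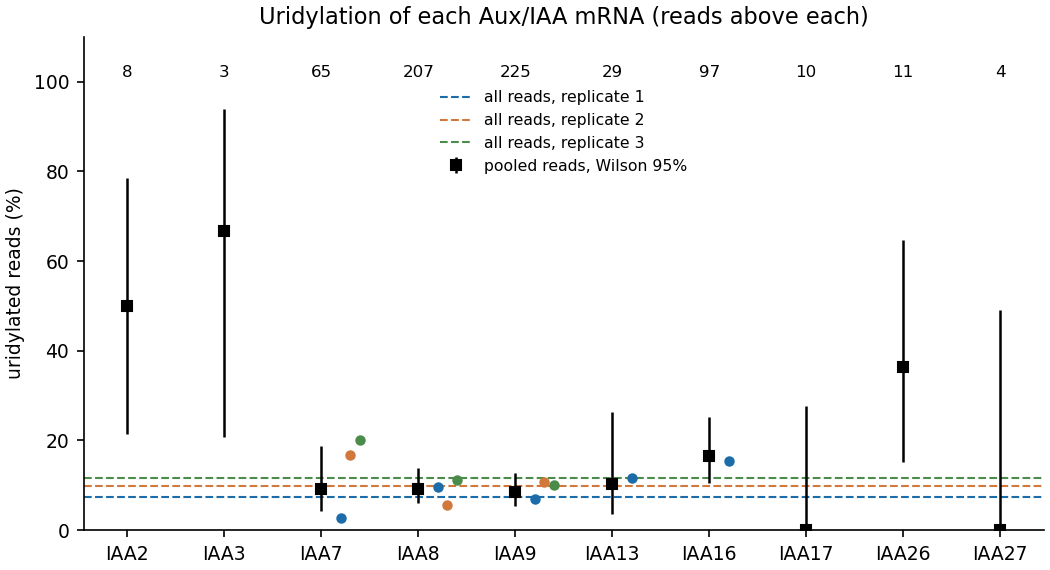
Share of uridylated reads (%) of each Aux/IAA mRNA. Black squares are pooled reads with 95% Wilson intervals, coloured points are libraries with at least 10 reads of that mRNA, dashed lines are all reads of each library (7.41%, 9.96% and 11.6%), and the numbers are the reads. The IAA16 interval (10.4% to 25.1%) starts above the lines of replicates 1 and 2, and those of IAA7, IAA8, IAA9 and IAA13 span all 3 lines.

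Tails without added nucleotides differed in length among the members, with IAA8 at the long and IAA16 at the short end of those tested when lengths were ranked within libraries. By pooled median IAA13, with 19 As on 26 reads, was shorter than IAA16, with 22. IAA8 tails had a median of 30, 22 and 23.5 As in replicates 1, 2 and 3 (120, 34 and 32 reads). IAA16 tails had a median of 22, 14 and 22 As (71, 5 and 5 reads), below or at the library median of 26, 22 and 22. IAA8 was thus at or above the library median in every library, and IAA16 at or below it.

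To compare lengths within libraries, the effect was taken as the share of other mRNAs' tails that were shorter, which is 50% where nothing differs. For IAA8 it was 56.1% (n = 186 reads, adjusted p = 0.0317, van Elteren test over 3033 mRNAs). For IAA16 it was 35.9% (n = 81 reads, adjusted p = 0.000207), and only 1.58% of the mRNAs tested had a lower value. One member of 5 was longer and 1 shorter, where 8.54% of all mRNAs tested were longer and 6.23% shorter. IAA8 passed the test in replicate 1 alone (59.0%, n = 120 reads, adjusted p = 0.00647) and did not pass without it (50.7%, n = 66 reads, adjusted p = 0.934). IAA16 was shorter in replicate 1 alone (36.6%, n = 71 reads, adjusted p = 0.00123) and could not be tested without it, with 10 reads left.

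IAA9, read as often as IAA8, did not depart from the other mRNAs. Its median was 25.5, 22.5 and 20 As and its effect 49.9% (n = 205 reads, adjusted p = 0.992). IAA7 had a median of 26 As and an effect of 52.2% (n = 58 reads, adjusted p = 0.774), and IAA13 a median of 19 As and an effect of 41.8% (n = 26 reads, adjusted p = 0.385). The median was 27 As for IAA2, 25.5 for IAA17 and for IAA27, and 30 for IAA26, all on 10 or fewer unmodified reads. Tails were read up to 91 As, a limit reached by 1 read of IAA7 and 1 of IAA8, so longer tails could not be told apart. Over all members the median was 26, 22 and 21 As, against 26, 22 and 22 for all mRNAs.

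**Figure D3:**
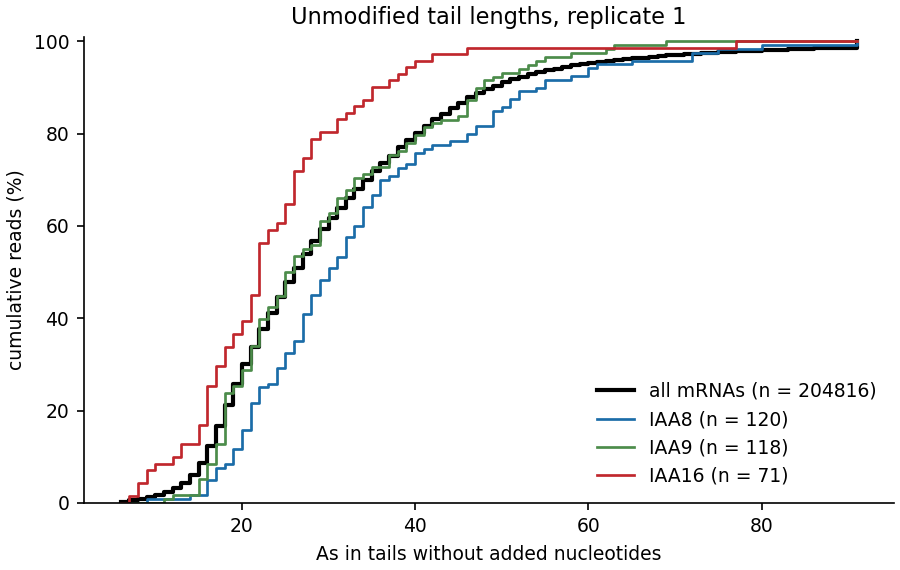
Cumulative share (%) of replicate 1 tails without added nucleotides against the number of As, for IAA8, IAA9, IAA16 and all mRNAs. The IAA16 curve (median 22 As) rises before that of all mRNAs (median 26), the IAA9 curve (25.5) follows it, and the IAA8 curve (30) lies to its right.

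Nearly all uridylated member tails were short, as on other mRNAs. Of the 73 uridylated tails, 63 (86.3%) had 10 to 25 As, 4 had fewer and 6 had more, and the share with 10 to 25 As was 84.2% over all mRNAs. The median uridylated tail had 15 As for the members and for all mRNAs. Uridylated tails of IAA8 had a median of 15 As (11 to 46), those of IAA9 16 (13 to 39), and those of IAA16 12.5 (7 to 37). IAA7 had 15 to 19 As on its uridylated tails, IAA13 13 to 15, IAA26 16 to 19 and IAA2 9 to 15, while the IAA3 tails had 23 and 27. A test of these lengths, chosen after the values were seen, called 0 of the 3 members with at least 10 uridylated reads, where 2.71% of 701 mRNAs were longer and 2.14% shorter. IAA16 came nearest, with an effect of 38.3% and an unadjusted van Elteren p of 0.103.

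**Figure D4:**
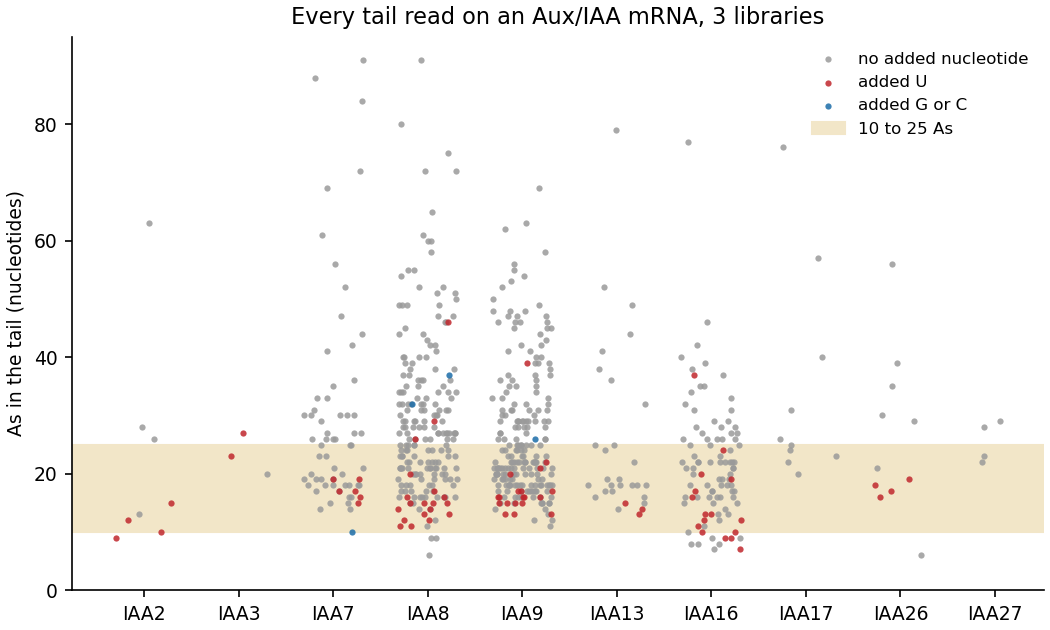
Number of As (vertical axis) in every tail read on each Aux/IAA mRNA in the 3 libraries, coloured by what was added after the last A, with the band of 10 to 25 As shaded. The red points of uridylated tails lie in the band for 63 of 73 reads, and IAA16 has 9 of 97 reads below it.

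Since uridylation falls with tail length, the members were also compared within tails of 10 to 25 As. There, 63 of 364 member reads were uridylated, or 17.3% (13.8% to 21.5%), against 13.7% of all reads. By library it was 17.2%, 13.2% and 21.0% for the members against 12.3%, 13.7% and 16.0%, higher in 2 of 3 libraries, with means of 17.1% ± 3.88 and 14.0% ± 1.88 (SD, n = 3). Among tails over 25 As, 6 of 281 member reads were uridylated, or 2.14% (0.982% to 4.58%), against 1.75%, and under 10 As 4 of 14, or 28.6% (11.7% to 54.6%), against 27.7%. The intervals of the shortest and longest classes held the value of all reads.

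In this class 0 of 5 members passed the test, where 8.22% of 2043 mRNAs were higher and 7.83% lower, and 0 had an unadjusted Cochran-Mantel-Haenszel p under 0.05. The exact conditional test also called 0. IAA16 had 12 of 60 reads uridylated, or 20% (11.8% to 31.8%), with an odds ratio of 1.72 (0.911 to 3.24, n = 60 reads, adjusted p = 0.356), below its 2.32 over all tails. IAA16 also had 9 reads under 10 As, or 9.28%, against 11351 of 442916 reads of all mRNAs. In replicate 1, 7.04% of its unmodified tails had under 10 As, against 1.24% for all mRNAs. Over 25 As it had 33.3% of its unmodified tails, against 45.1% for all mRNAs. This share was 30.8% for IAA13, 42.0% for IAA9, 51.7% for IAA7 and 57.0% for IAA8. These shares are pooled over libraries, and most IAA16 and IAA13 reads came from replicate 1. By library, all mRNAs had 52.1%, 37.7% and 37.7% over 25 As in replicates 1, 2 and 3. Within 10 to 25 As, IAA8 had 16 of 93 reads uridylated (17.2%, odds ratio 1.33, 0.778 to 2.28) and IAA9 18 of 137 (13.1%, odds ratio 0.957, 0.583 to 1.57). IAA7 had 6 of 35 (17.1%) and IAA13 3 of 21 (14.3%).

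**Figure D5:**
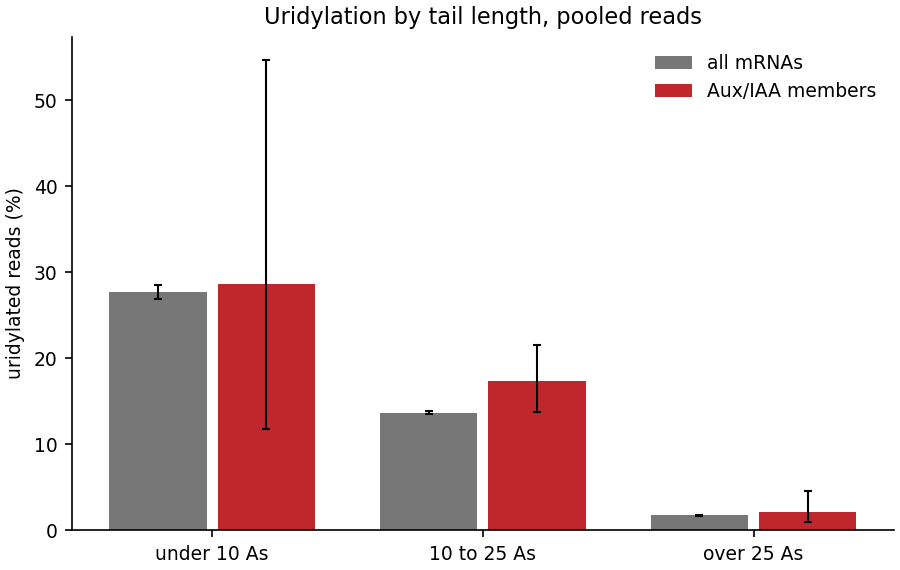
Uridylated reads (%) among tails under 10, of 10 to 25 and over 25 As, for all mRNAs (grey) and the 10 Aux/IAA members (red), pooled over libraries, with 95% Wilson intervals. The members have 28.6%, 17.3% and 2.14%, and all mRNAs 27.7%, 13.7% and 1.75%.

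The added tract on the members was mostly a lone U. Of 73 uridylated tails, 59 ended in 1 U and 14 (19.2%, 11.8% to 29.7%) in 2 or more, against 35.1% of all uridylated tails. By library it was 10 of 46, 1 of 10 and 3 of 17 (21.7%, 10% and 17.6%) against 31.7%, 36.8% and 38.0%, lower in 3 of 3 libraries. The means were 16.5% ± 5.96 and 35.5% ± 3.34 (SD, n = 3). Reads of the most abundant mRNAs weigh on the value of all reads, and the median over the 701 mRNAs with at least 10 uridylated reads was 27.8%.

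The most-read pair had few tails with more than 1 U. IAA8 and IAA9 together had 3 tails with 2 Us among 38 uridylated tails, while the other 8 members had 11 with 2 or more among 35. IAA9 had 1 of 19 (5.26%, 0.935% to 24.6%) and IAA8 2 of 19 (10.5%, 2.94% to 31.4%), against 7 of 16 (43.8%, 23.1% to 66.8%) for IAA16 and 3 of 4 for IAA26. In a test added after these values were seen, the odds ratio was 0.101 for IAA9 (0.0133 to 0.773, n = 19 tails, unadjusted Cochran-Mantel-Haenszel p = 0.0139), 0.238 for IAA8 (0.0556 to 1.02, n = 19 tails, unadjusted p = 0.0591) and 1.60 for IAA16 (0.591 to 4.31). After adjustment 0 of the 3 passed (adjusted p = 0.125, 0.307 and 0.842), where 3.14% of 701 mRNAs were higher and 3.14% lower, and the exact conditional test also called 0 of them, with an adjusted p of 0.056 for IAA9.

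The rest of the auxin pathway gave a mixed picture. Of 93 genes listed in it, 73 had reads and 13 had enough for the uridylation test, of which 4 were higher (ARF2, ARF5, ARF6 and GH3.5) and 0 lower. Of all mRNAs tested, 9.51% were higher and 5.76% lower. ARF2, a repressing ARF that acts in floral organ shedding, had 53 of 182 reads uridylated (29.1%, odds ratio 4.47, 3.23 to 6.18, n = 182 reads, adjusted p = 3.92e-20). ARF6, which promotes flower maturation, had 21 of 88 (23.9%, odds ratio 2.98, n = 88 reads, adjusted p = 0.000191), and did not pass in replicate 1 alone (n = 35 reads, adjusted p = 0.110). ARF5, also known as MONOPTEROS, had 6 of 22 (27.3%, n = 22 reads, adjusted p = 0.0248), but did not pass with variance inflated for the spread between libraries (n = 22 reads, adjusted p = 0.0746) and had too few reads to be tested without replicate 1 or 2. GH3.5, which encodes an enzyme that conjugates auxin to amino acids, had 7 of 29 (24.1%, n = 29 reads, adjusted p = 0.0306), but did not pass without replicate 2 (n = 26 reads, adjusted p = 0.292), without replicate 3 (n = 27 reads, adjusted p = 0.321) or in replicate 1 alone (n = 24 reads, adjusted p = 0.916). With inflated variance its adjusted p was 0.101 (n = 29 reads). Counting only tails of at least 2 Us, ARF5 (n = 22 reads, adjusted p = 0.810) and ARF6 (n = 88 reads, adjusted p = 0.266) did not pass either. The ARFs are the direct partners of the Aux/IAA proteins, and their reads were uridylated in 25.6% (21.4% to 30.3%) of 363 cases, with 19.3%, 41.7% and 28.8% by library, above the members' 10.4%, 9.52% and 15.0% in each. That difference between lists was not tested.

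By unmodified tail length, 9 of these pathway genes were tested, and 2 were longer and 0 shorter, where 8.54% of all mRNAs tested were longer and 6.23% shorter. IAA4, an Aux/IAA gene outside the 10, had a median of 30.5 As (effect 61.7%, n = 64 reads, adjusted p = 0.0116), and its uridylation was 12.3%, 9 of 73 reads (adjusted p = 0.704). GH3.5 had a median of 36 As (effect 68.1%, n = 22 reads, adjusted p = 0.0259). Neither call held under every alternative. IAA4 did not pass without replicate 1 (n = 22 reads, adjusted p = 0.0557), without replicate 2 (n = 53 reads, adjusted p = 0.0516), in replicate 1 alone (n = 42 reads, adjusted p = 0.144) or without tails at the length limit (n = 60 reads, adjusted p = 0.0621). GH3.5 did not pass with all reads counted by As (n = 29 reads, adjusted p = 0.276) or by As plus added nucleotides (n = 29 reads, adjusted p = 0.214), nor without tails at the length limit (n = 20 reads, adjusted p = 0.0819), and could not be tested without replicate 1. The 12 other Aux/IAA mRNAs with reads had 130 reads in all, 16.2% uridylated (10.8% to 23.4%), with 7.14%, 31.8% and 33.3% by library and 32.6% without replicate 1. The receptors and SCF subunits that bring about Aux/IAA degradation had 307 reads, 10.4% uridylated (7.48% to 14.3%), with 7.22%, 18% and 14.3% by library and 15.9% without replicate 1. In the uridylation test 0 of 6 of these passed, where 9.51% of all mRNAs tested were higher and 5.76% lower. The JAZ mRNAs, which encode the jasmonate pathway's repressors that are degraded through a like mechanism, had 316 reads, 25.9% uridylated (21.4% to 31.1%). In the same test 3 of 4 (JAZ5, JAZ6 and JAZ9) were higher, against 9.51% of all mRNAs, JAZ6 not without replicate 1 (n = 21 reads, adjusted p = 0.134). JAZ5 had too few reads to be tested without replicate 1 or 2, or in replicate 1 alone. At 2 or more Us, JAZ5 (n = 27 reads, adjusted p = 1) and JAZ6 (n = 83 reads, adjusted p = 0.628) did not pass. Their share was 21.1%, 28.4% and 39.0% by library.

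In their gene models most members had long 3′ untranslated regions, a feature the choice of genes did not use. In RefSeq's annotation of TAIR10.1 these regions had a median of 419 bases in the 10 members, from 208 in IAA8 to 930 in IAA7, against a median of 298 (interquartile range 232 to 385) over 3374 tested mRNAs. That of IAA16 had 838 bases and that of IAA13 812, whereas that of IAA9 had 410. IAA8, IAA17 (323) and IAA27 (369) lay below the upper quartile of those mRNAs, and IAA8 below the lower. The hexamer AATAAA, searched on the sense strand of the last 50 bases, was found in IAA7 alone of the 10, a share of 1 in 10 against 10.02% of those mRNAs. The motif TGTANATA, searched on the sense strand of the last 150 bases, was found in 0 of 10, against 2.99%. Of the members, 2 pairs lie close to each other. IAA3 and IAA17 point away from each other 6388 bases apart on chromosome 1, and IAA2 and IAA7 do so 12510 bases apart on chromosome 3, with 1 other annotated gene between the genes of each pair.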

How the data were processed

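TAIL-seq reads of 3 wild-type flower libraries were used. The authors removed duplicate reads, mapped read 1 to TAIR10 with HISAT2 2.1.0 and Bowtie2, assigned it to genes with BEDTools (2.17.5 in the submitters' processing notes), kept cytosolic mRNAs and measured tails with their own scripts. The deposited table holds a row per read and locus, with the tail's number of As (6 to 91) and the added nucleotides, written as the complement. Of 455742 rows, 172 repeats were dropped. All 10 members matched RefSeq TAIR10.1, and 16496 of 16577 identifiers did.

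Each mRNA with at least 20 reads was compared with all others, with library as stratum: uridylation, also at 10 to 25 As alone, by Cochran-Mantel-Haenszel tests (two-sided, continuity-corrected), and unmodified tail length by the van Elteren (stratified Wilcoxon) test. Benjamini-Hochberg adjustment ran over all mRNAs tested, with a threshold of 0.05. Tests used Python 3.11.15, scipy 1.17.1 and statsmodels 0.14.6, and were tested on simulated data. Reads were treated as independent, so p-values measure the spread between reads of these libraries. Shares have 95% Wilson intervals and levels exact Poisson intervals, and 0 reads allow up to 3. Alternatives left out each replicate, changed minimums, U counts and tests, dropped reads shared between genes, or used replicate 1 alone. All members were named, and the pathway genes with an adjusted p under 0.05. The members and lists were chosen with earlier results of these data known.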

Additional observations from a re-analysis of the deposited data

How the results depend on the processing

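The number of members with higher uridylation was 0 to 1 when a replicate was left out, 2 at a minimum of 10 reads, and 0 for tails of at least 2 Us, with variance inflated for overdispersion, or in replicate 1 alone. Without replicate 1, IAA16 had too few reads to be tested. For IAA16, the odds ratio was 2.09 to 2.95 over the alternatives that could be fitted and the adjusted p 0.0129 to 0.223 (Cochran-Mantel-Haenszel test unless stated). At 2 Us it was 2.95, with an adjusted p of 0.102. Over all mRNAs, 102 to 207 were higher (327 in the full set) and 73 to 145 were lower (198 in the full set) when a replicate was left out. The counts were 590 higher at 10 reads, 123 higher at 50, 193 higher and 97 lower at 2 Us, 20 lower with inflated variance, and 97 higher and 86 lower in replicate 1. The number of mRNAs tested changes with the replicates and minimum used and is not given here, so these counts are not shares.

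The counts of members with longer and with shorter tails were each 0 without replicate 1, where IAA8 was tested and not called and IAA16 had too few reads to be tested. In that setting 114 mRNAs were longer and 61 shorter (114 to 215 and 61 to 180 over the left-out replicates). No member was longer (0) when added nucleotides were counted, with an adjusted p of 0.0516 for IAA8 (van Elteren test). IAA16 stayed shorter in the 10 alternatives run, with effects of 35.1% to 39.8%. At 10 to 25 As, 53 to 103 mRNAs were higher and 56 to 112 lower with a replicate left out, 347 higher at 10 reads, 52 higher at 50, 96 higher and 79 lower at 2 Us, 42 lower with inflated variance, and 38 higher and 69 lower in replicate 1.

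For the share with at least 2 Us, 7 to 14 mRNAs were higher and 5 to 16 lower with a replicate left out, 44 lower by the exact test, and 4 higher and 0 lower in replicate 1. For lengths of uridylated tails, 8 to 17 were longer and 8 to 13 shorter with a replicate left out, and 6 shorter in replicate 1. The members' mean uridylation over libraries, unweighted by reads, was 1.96% at 2 Us and 18.9% without IAA8 and IAA9. No result changed direction where called.

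No paired analysis was possible because the libraries form 1 group with no second group to pair them with. Library was a stratum of each test in the report, so members and other mRNAs were compared within libraries. Depth limits most of the family: 5 members had under 20 reads, and IAA16 and IAA13 were read mainly in replicate 1.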
